A study of Rattus norvegicus with 10 samples.

Results

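The genes described here are 31 genes of cholesterol synthesis and of its control by the transcription factor SREBP2, measured in rat liver. They were chosen by name and by function. A gene's value was the sum over its isoform rows that matched the reference or shared its splice sites, which gave 92 rows of the 51430 in the deposited table for the 31 genes, of 20226 named genes in all. Each of the 31 was also among the 11139 genes with a mean of at least 1 FPKM (fragments scaled by transcript length and by library total), the level asked for in the test. The genes comprised 6 regulators, 8 enzymes from acetyl-CoA through mevalonate to isoprenoids, 3 enzymes that make squalene and lanosterol, 8 enzymes that turn lanosterol into cholesterol, and 6 genes of sterol uptake, transfer and esterification.

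The study profiled long RNA, after removal of ribosomal RNA, in livers of diabetic rats after sleeve gastrectomy (SG), an operation that removes most of the stomach along its greater curvature, or after a sham operation (SHAM). Every animal was a wild-type Wistar rat on a diet with 60% of its calories as fat for 4 weeks, then given streptozotocin, a toxin of the insulin-making beta cells, at 35 mg/kg after a fast of 16 h. Rats whose fasting glucose was above 16.7 mmol/L 3 days later were taken as diabetic and were randomised into body-weight-matched SG and SHAM groups. There were 5 SG libraries, labelled as taken 3 months after surgery, and 5 SHAM libraries, for which the labels give no interval. The labels do not say that each library came from a different animal, so a p-value here reflects only how much these samples vary. The sources used here give neither the hour of tissue collection nor the feeding state at that time. Total estimated counts lay between 77617460 and 92110190 for SG and between 65824088 and 85520959 for SHAM, and within-group correlations between libraries lay between 0.918 and 0.952. The hepatocyte markers fitted the label of liver: summed over 8 genes such as Alb and Ttr they lay between 31900 and 44300 FPKM in SG and between 28400 and 41100 FPKM in SHAM.

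SREBP2 is made as a membrane protein of the endoplasmic reticulum. When membrane sterol is low, the escort protein SCAP carries it to the Golgi, where the site-1 and site-2 proteases cut it and free the part that enters the nucleus and turns on nearly every gene of sterol synthesis. When sterol is high, INSIG proteins hold SCAP in place and the genes fall. In rodents, hepatic sterol synthesis also follows a daily rhythm tied to feeding.

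The levels of the sterol enzymes spanned a wide range inside both groups, and the groups overlapped for all 31 genes. The summed level of the 19 enzymes was 1798, 368, 1494, 397 and 324 FPKM in SG 1 to SG 5, and 1262, 820, 1042, 265 and 143 FPKM in SHAM 1 to SHAM 5. SG 1, SG 3, SHAM 1, SHAM 2 and SHAM 3 were thus the high libraries and SHAM 5 the lowest. The same 5 libraries held the 5 highest values for 20 of the 31 genes and for 16 of the 19 enzymes, against 237 of the 11139 tested genes (2.13%). This set was picked as the most frequent one among the 31 genes themselves, so the counts are a description and not a test. SG 1 was the highest library for 18 of the 31 genes, and SHAM 5 was the lowest for 23, among them 18 of the 19 enzymes. The exception was Ggps1, which was lowest in SG 4. Because 2 of the 5 high libraries were SG and 3 were SHAM, the high and low libraries did not follow the surgery labels.

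**Figure D1:**
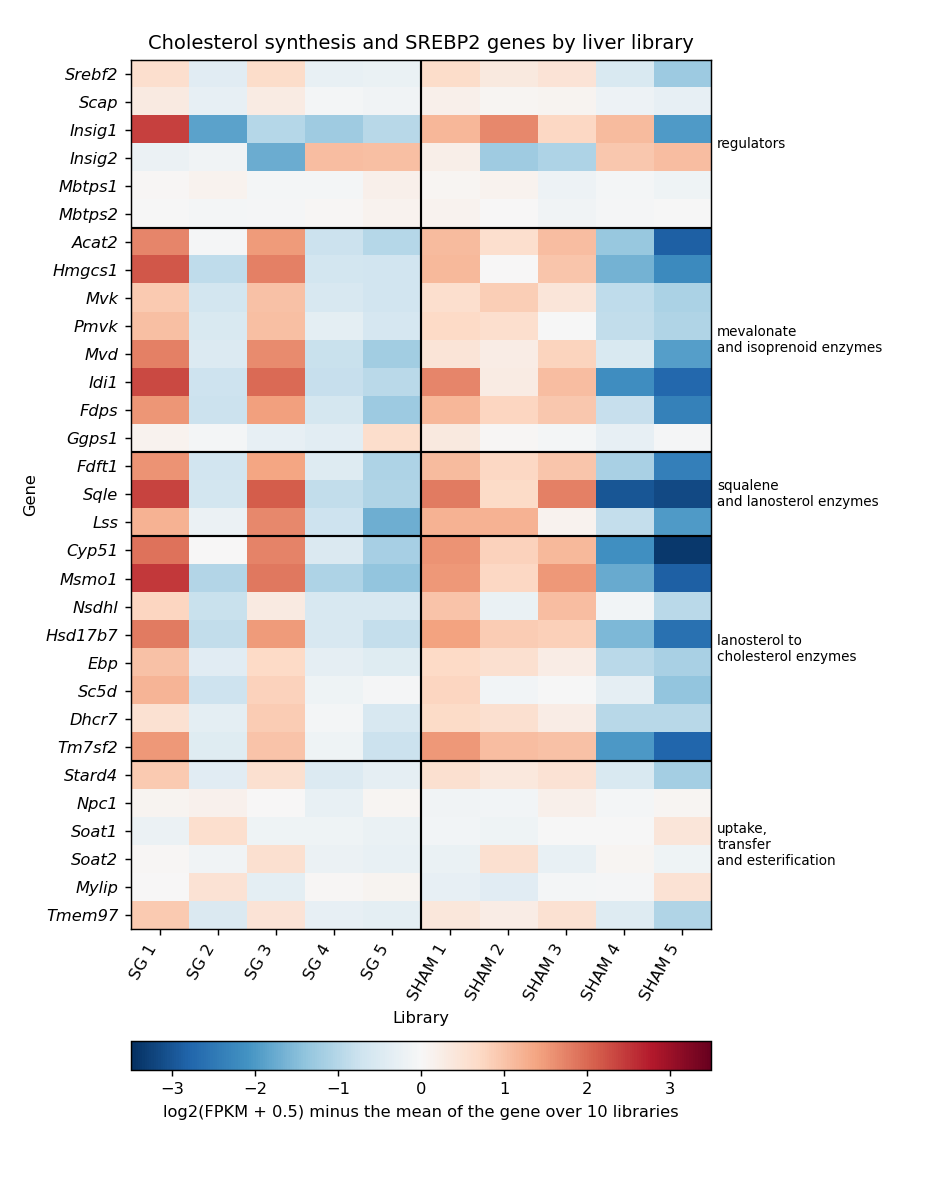
Level of each of the 31 genes (rows, ordered by role) in each of the 10 libraries (columns), as log2(FPKM + 0.5) minus the gene's mean over the libraries. SG 1, SG 3, SHAM 1, SHAM 2 and SHAM 3 are high across most enzyme rows, SHAM 5 is the lowest for 18 of the 19 enzymes, and Insig2 runs the other way.

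Since the enzymes moved together over libraries, the 250 bases before the annotated starts of the genes were searched for the sequences of promoters that SREBP2 is known to use, in RefSeq's table on build GRCr8. SREBP2 binds sterol regulatory elements and is known to act with the factor NF-Y, which binds CCAAT, and with Sp1, which binds GGGCGG. A promoter was found for 26 of the 31 genes and not for Pmvk, Sqle, Fdft1, Stard4 and Soat2. The promoters of 4 genes are printed here as examples. These genes had the 5 high libraries in common and hold CCAAT more than once. Mvk, Hsd17b7, Ebp and Tmem97 met both conditions too and are not printed. Those printed are Hmgcs1 at chr2:53382054-53382303 on the plus strand and Idi1 at chr17:66547525-66547774 on the minus strand. Printed as well are Fdps at chr2:176804817-176805066 on the minus strand and Msmo1 at chr16:29746863-29747112 on the plus strand. Each is written in the direction of transcription up to the base before the start, and capitals mark CCAAT or its reverse complement ATTGG.
Hmgcs1: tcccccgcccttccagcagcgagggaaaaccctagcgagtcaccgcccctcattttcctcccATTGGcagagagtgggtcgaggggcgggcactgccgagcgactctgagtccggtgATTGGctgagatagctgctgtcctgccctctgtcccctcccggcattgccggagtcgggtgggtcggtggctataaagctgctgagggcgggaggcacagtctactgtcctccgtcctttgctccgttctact
Idi1: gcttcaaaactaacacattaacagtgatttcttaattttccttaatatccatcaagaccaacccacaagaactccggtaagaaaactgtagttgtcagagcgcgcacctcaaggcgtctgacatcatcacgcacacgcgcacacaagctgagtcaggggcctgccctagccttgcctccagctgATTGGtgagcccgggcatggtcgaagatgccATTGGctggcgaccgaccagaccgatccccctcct
Fdps: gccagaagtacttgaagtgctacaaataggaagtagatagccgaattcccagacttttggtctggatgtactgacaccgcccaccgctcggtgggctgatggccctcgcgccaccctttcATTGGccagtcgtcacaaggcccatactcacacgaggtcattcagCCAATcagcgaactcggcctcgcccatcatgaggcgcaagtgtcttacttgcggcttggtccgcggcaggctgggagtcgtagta
Msmo1: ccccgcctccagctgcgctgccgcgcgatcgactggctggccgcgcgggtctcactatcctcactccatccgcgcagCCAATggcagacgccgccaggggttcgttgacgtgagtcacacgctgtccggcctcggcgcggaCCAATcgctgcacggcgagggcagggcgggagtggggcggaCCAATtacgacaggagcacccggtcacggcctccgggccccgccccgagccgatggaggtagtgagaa
Hmgcs1, Idi1 and Fdps each hold 2 of these matches and Msmo1 holds 3. CCAAT, read on both strands, was present in 19 of the 26 promoters (73.1%), against 34% of the 33469 promoters in the table and 35% of the 21851 of protein-coding genes. There were 2 or more matches in 10 of the 26 (38.5%), against 10.6% of protein-coding promoters. GGGCGG, again on both strands, was present in 21 of the 26 (80.8%), against 30.5% of all promoters and 38.9% of protein-coding ones. One spelling of the sterol regulatory element, TCACNCCAC on both strands, was in 0 of the 26 and in 0.974% of all promoters. Matches of different motifs may overlap. These are matches of letters in a short window, not measured binding sites. CCAAT was absent from the promoters of Acat2, Cyp51, Dhcr7 and Scap, which had the 5 high libraries. It was present in those of Insig1, Insig2, Ggps1, Nsdhl, Sc5d, Soat1 and Mylip, which did not have them. Mbtps1, Mbtps2 and Npc1 had neither. The part of these motifs in the shared pattern was not tested.

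Among the regulators, Srebf2, which encodes SREBP2, was at 50.3, 25.1, 52.7, 27.9 and 28.5 FPKM in SG 1 to SG 5 and at 51.9, 42.1, 46.7, 23.0 and 13.4 FPKM in SHAM 1 to SHAM 5. The 5 libraries high for the enzymes were high for Srebf2 as well, with at least 42.1 FPKM against at most 28.5 FPKM in the other 5, and SHAM 5 was lowest. Its group means of 36.9 ± 13.4 FPKM for SG and 35.4 ± 16.4 FPKM for SHAM (SD, n = 5 each) differed by less than that spread. The log2 fold change of SG over SHAM, on the scale of counts, was -0.01 with a standard error of 0.36 and a 95% interval from -0.82 to 0.79.

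The machinery around SREBP2 was steadier. Scap, the sterol-sensing escort, lay between 13.8 and 21.3 FPKM in the 10 libraries and had the same 5 highest libraries, though they were apart from the rest by a factor of only 1.09. Mbtps1, the site-1 protease, lay between 12.2 and 15.7 FPKM. Mbtps2, the site-2 protease and the gene with the smallest p among the 31, was at 2.10, 2.02, 2.05, 2.20 and 2.34 FPKM in SG and at 2.38, 2.16, 1.89, 2.03 and 2.11 FPKM in SHAM. The Mbtps2 ranges lay almost on top of each other, and its log2 fold change of -0.11 ± 0.08 (SE) had an unadjusted p of 0.188 and an adjusted p of 0.991 in edgeR. Its within-group SD was 0.07 on the log2 CPM scale, against a median of 0.26 over all tested genes.

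Insig1 and Insig2, which encode the proteins that hold SCAP back, did not follow the enzymes as closely. Insig1, itself a known target of SREBP2, was at 272, 13.5, 25.6, 21.2 and 26.1 FPKM in SG and at 115, 165, 85.3, 111 and 12.7 FPKM in SHAM. SG 1 stood far above the other 4 SG libraries, SG 3 was low although its enzymes were high, and SHAM 4 was high although its enzymes were low. The means of 71.6 ± 112 FPKM for SG and 97.7 ± 55.6 FPKM for SHAM (SD, n = 5 each) overlapped widely. The sign of its change depended on the unit: the log2 fold change was 0.10 ± 0.42 (SE) on counts, -1.08 on log2(FPKM + 0.5) and -0.72 on the reference isoform alone. The adjusted p was 0.867 on log2(FPKM + 0.5) in limma and 0.997 on the reference isoform in edgeR.

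Most Insig1 counts lay in assembled isoforms. On chromosome 4 (Rnor_6.0), the annotated Insig1 isoform of 2420 nt spans 342302 to 350515, while isoforms assembled by the authors reach upstream to 315769 and up to 33456 nt in length. The assembled isoforms held between 40.7% and 99% of the gene's estimated counts in a library, with a median of 80.6%, and long isoforms weigh more in counts than in FPKM. Counted on the annotated isoform alone, Insig1 was at 196, 1.52, 5.48, 2.30 and 1.53 FPKM in SG and at 88.4, 100.5, 67.0, 64.0 and 1.25 FPKM in SHAM. SG 1 and SHAM 1 to SHAM 4 were high on that isoform and the other 5 libraries were at 5.48 FPKM or less.

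Insig2, whose liver transcript is known in rodents to be lowered by insulin, was at 22.6, 23.98, 7.495, 55.2 and 54.4 FPKM in SG and at 30.3, 10.8, 12.2, 50.8 and 55.4 FPKM in SHAM. It was highest in SHAM 5, SG 4, SG 5 and SHAM 4, all low libraries for the enzymes, and lowest in SG 3. Its mean was 32.7 ± 21.1 FPKM for SG and 31.9 ± 20.9 FPKM for SHAM (SD, n = 5 each), and the log2 fold change of -0.06 had a 95% interval from -1.55 to 1.42. Nearly all of it came from assembled isoforms, which held between 98.8% and 99.9% of its counts. On chromosome 13 (Rnor_6.0), the annotated isoform of 991 nt (37266312 to 37287458) stayed between 0.474 and 0.772 FPKM in the 10 libraries, while the assembled 6-exon isoform of 6484 nt (37261080 to 37292848) ran from 6.28 to 38.9 FPKM.

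The mevalonate stretch held the 3 largest point estimates of the 31 genes, those of Hmgcs1, Mvd and Idi1. Hmgcs1, which makes HMG-CoA from acetyl-CoA units and was the most abundant enzyme of the 19 in SG 1, was at 411, 48.8, 315, 58.6 and 57.4 FPKM in SG and at 203, 91.6, 180, 29.0 and 19.3 FPKM in SHAM. SG 1 and SG 3 were above every SHAM library, and the other 3 SG libraries were below SHAM 1 to SHAM 3. The mean was 178 ± 172 FPKM for SG and 105 ± 84.5 FPKM for SHAM (SD, n = 5 each). Its log2 fold change of 0.70 ± 0.80 (SE), with a 95% interval from -1.08 to 2.48, was the largest of the 31 and had an unadjusted p of 0.405 and an adjusted p of 0.991 in edgeR. It ran from 0.14 to 1.04 when each library was left out in turn.

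Idi1, which turns isopentenyl diphosphate into its reactive isomer, was at 39.3, 4.34, 31.5, 4.12 and 3.71 FPKM in SG and at 25.7, 9.23, 16.6, 1.29 and 0.685 FPKM in SHAM. The highest library exceeded the lowest by 57.3-fold, the step from the 5 high libraries to the next was from 9.23 to 4.34 FPKM, and the lowest SG libraries were above SHAM 4 and SHAM 5. The log2 fold change was 0.58 ± 1.01 (SE), with an unadjusted p of 0.575 and an adjusted p of 0.993 in edgeR. Fdps, which builds farnesyl diphosphate, the branch point to sterols and prenylated proteins, was at 322, 65.5, 298, 72.0 and 45.85 FPKM in SG and at 246, 185, 214, 62.9 and 21.05 FPKM in SHAM. Its 5 high libraries were at 185 FPKM or more and the others at 72.0 FPKM or less, whichever the surgery. The Fdps means were 161 ± 137 FPKM for SG and 146 ± 98.3 FPKM for SHAM (SD, n = 5 each), and the log2 fold change was 0.08.

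Acat2, the cytosolic thiolase that starts the pathway, was at 21.4, 5.93, 18.3, 3.43 and 2.79 FPKM in SG and at 13.8, 9.54, 13.5, 2.145 and 0.410 FPKM in SHAM. Assembled isoforms held between 89.9% and 100% of the Acat2 counts, and the annotated isoform was at 0.259 FPKM or less in every library. On chromosome 1 (Rnor_6.0) that isoform ends at 47992653, while an assembled one of 1953 nt reaches to 48026268. The Acat2 values thus rest on the assembled isoforms. Mvd, which decarboxylates mevalonate diphosphate, was at 12.6, 2.28, 11.6, 1.73 and 1.14 FPKM in SG and at 4.79, 4.11, 6.11, 2.17 and 0.517 FPKM in SHAM. For both, the 5 high libraries were those of Hmgcs1, and for Mvd SG 1 and SG 3 were above every SHAM library. The log2 fold changes were 0.46 ± 0.92 (SE) for Acat2 and 0.66 ± 0.78 (SE) for Mvd, whose unadjusted p was 0.416 and adjusted p 0.991 in edgeR. The kinases Mvk and Pmvk ran from 2.84 to 14.15 FPKM and from 3.63 to 17.3 FPKM and had the same 5 high libraries, with log2 fold changes of -0.02 and 0.25. Ggps1, which makes geranylgeranyl diphosphate for protein prenylation, was the enzyme that did not take part: it stayed between 2.12 and 4.76 FPKM and was highest in SG 5.

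**Figure D2:**
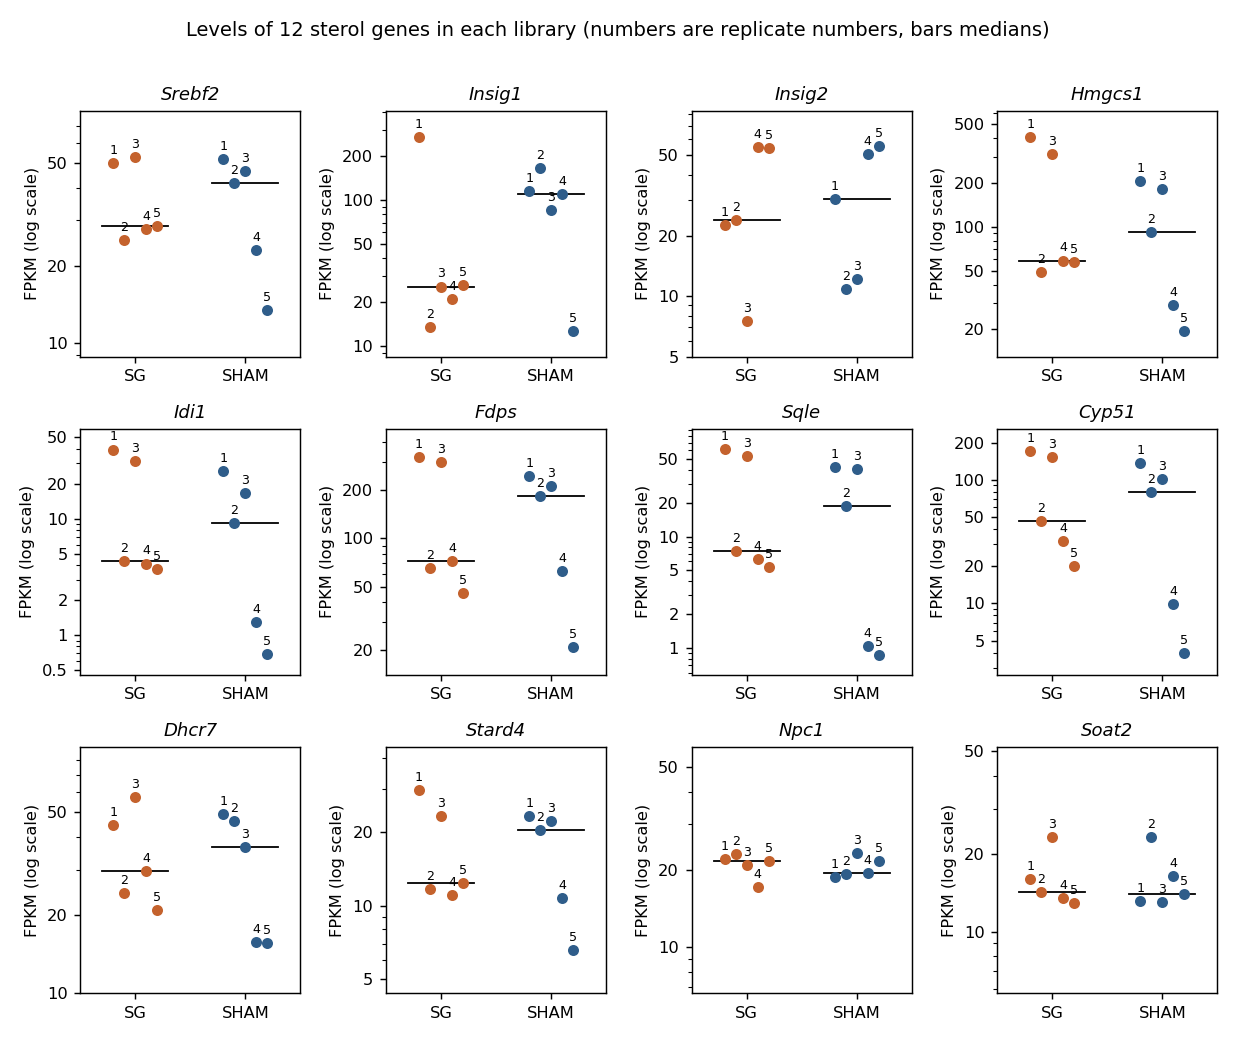
FPKM (log axis) of 12 of the genes in each library, SG in orange and SHAM in blue; numbers are replicate numbers and bars are group medians. SG 1, SG 3, SHAM 1, SHAM 2 and SHAM 3 are high for Srebf2, Hmgcs1, Idi1, Fdps, Sqle, Cyp51, Dhcr7 and Stard4, while Npc1 stays between 17.1 and 23.2 FPKM and the groups overlap for every gene.

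In the squalene and lanosterol group all 3 genes had the same 5 high libraries. Sqle, the squalene epoxidase and a rate-limiting step, was at 61.9, 7.37, 53.1, 6.25 and 5.35 FPKM in SG and at 42.6, 18.85, 40.6, 1.04 and 0.857 FPKM in SHAM. It had the widest range of the 31 genes, 72.2-fold from SHAM 5 to SG 1, and SHAM 4 and SHAM 5 stood below the lowest SG library by a step of 5.15-fold. The mean was 26.8 ± 28.2 FPKM for SG and 20.8 ± 20.4 FPKM for SHAM (SD, n = 5 each), and the log2 fold change of 0.31 ± 1.05 (SE) had a 95% interval from -2.01 to 2.63. Fdft1, the squalene synthase that commits carbon to sterols, ran from 6.29 to 105 FPKM, and Lss, which folds the squalene epoxide into lanosterol, from 2.55 FPKM to a peak in SG 3. Their log2 fold changes were 0.16 and 0.03. The Fdft1 sum leaves out 1 antisense row, and since the sources used here do not give the strandedness of the libraries, reads of a gene and of an antisense partner could not be told apart for Fdft1, Insig1 and Stard4.

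Of the 8 enzymes from lanosterol to cholesterol, 6 shared the 5 high libraries in FPKM and Nsdhl and Sc5d did not. Cyp51, the lanosterol demethylase, was at 172, 46.45, 154, 31.8 and 20.1 FPKM in SG and at 136, 80.3, 101, 9.93 and 3.97 FPKM in SHAM. Its range was 43.2-fold, and SHAM 4 and SHAM 5 were again below every SG library. The means were 84.8 ± 72.1 FPKM for SG and 66.1 ± 57.6 FPKM for SHAM (SD, n = 5 each), with a log2 fold change of 0.31 ± 0.90 (SE). Msmo1, which oxidises the methyl groups that are removed, showed the clearest step, from 57.0 FPKM in the lowest of the 5 high libraries to 16.5 FPKM in the next, and Hsd17b7, a ketosteroid reductase of the same complex, stepped from 10.5 to 3.71 FPKM.

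Dhcr7, the reductase that makes cholesterol in the last step of one route, was at 44.7, 24.3, 57.5, 29.7 and 20.8 FPKM in SG and at 49.5, 46.3, 36.9, 15.7 and 15.5 FPKM in SHAM. It moved over a narrower range, 3.70-fold, with the same libraries on top. Its means were 35.4 ± 15.4 FPKM for SG and 32.8 ± 16.3 FPKM for SHAM (SD, n = 5 each), and its log2 fold change was 0.22 ± 0.41 (SE). Assembled isoforms held between 16.4% and 87.5% of the Dhcr7 counts, with a median of 73.8%. On annotated isoforms alone, Dhcr7 was at 11.86, 16.63, 8.055, 6.66 and 11.65 FPKM in SG. In SHAM it was at 15.42, 15.61, 7.096, 5.31 and 14.25 FPKM. There SG 2 was highest and SHAM 5 was above SG 1, SG 3 and SHAM 3, so the shared pattern was not seen on them. Sc5d, the sterol desaturase before that step, was at 116.5, 30.7, 90.0, 45.6 and 49.7 FPKM in SG and at 87.1, 47.3, 50.2, 40.9 and 19.4 FPKM in SHAM. SG 5 took the place of SHAM 2 among its 5 highest, by 49.7 against 47.3 FPKM. The means of 66.5 ± 35.5 FPKM for SG and 49.0 ± 24.5 FPKM for SHAM (SD, n = 5 each) gave a log2 fold change of 0.37 ± 0.42 (SE), with an unadjusted p of 0.400 and an adjusted p of 0.991 in edgeR.

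The remaining enzymes of this stretch differed in how far they moved. Tm7sf2, a sterol reductase, ran from 3.57 to 79.5 FPKM, and Ebp, a sterol isomerase, from 18.1 to 82.6 FPKM. Nsdhl, the dehydrogenase that removes the methyl carbons with Msmo1, ran from 16.6 to 67.7 FPKM and was highest in SHAM 3 and SHAM 1. Those peaks came from its annotated isoform of 2983 nt, which was at 49.85 FPKM in SHAM 1 and 58.2 FPKM in SHAM 3 and at 11.96 FPKM or less elsewhere. The assembled isoform of 10613 nt was lowest in the same libraries, at 8.94 and 5.73 FPKM. It was at 34.7 FPKM in SG 1 and 26.1 FPKM in SG 3. The order of the libraries in summed FPKM may therefore depend on how reads were split between these isoforms. On log2 CPM, where long isoforms weigh more, Nsdhl had r of 0.84 with Hmgcs1. Its log2 fold change was 0.09 on all isoforms and -1.89 on reference isoforms only, where the unadjusted p was under 0.05 for 1 of the 29 genes that could be tested and the adjusted p of Nsdhl was 0.996 in edgeR.

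Genes of uptake, transfer and esterification moved less, apart from a pair that followed the enzymes. Stard4, a soluble carrier that moves sterol between membranes and a known SREBP2 target, was at 29.7, 11.7, 23.2, 11.1 and 12.4 FPKM in SG and at 23.2, 20.4, 22.2, 10.7 and 6.60 FPKM in SHAM. Its 5 high libraries were at 20.4 FPKM or more and the others at 12.4 FPKM or less, and its means of 17.6 ± 8.39 FPKM for SG and 16.6 ± 7.49 FPKM for SHAM (SD, n = 5 each) gave a log2 fold change of 0.01 ± 0.37 (SE). Tmem97, a sterol-regulated protein of the endoplasmic reticulum that binds NPC1, also had the 5 high libraries and ran from 11.75 to 47.15 FPKM.

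Npc1, which exports sterol from lysosomes, was at 21.95, 23.0, 20.8, 17.1 and 21.7 FPKM in SG and at 18.7, 19.3, 23.2, 19.45 and 21.6 FPKM in SHAM. Neither the surgery nor the 5 libraries high for the enzymes set its level apart, and its log2 fold change of -0.05 had a 95% interval from -0.32 to 0.23. Soat2, which esterifies sterol in hepatocytes, was at 16.0, 14.25, 23.3, 13.4 and 12.9 FPKM in SG and at 13.2, 23.35, 13.1, 16.4 and 13.9 FPKM in SHAM. SG 3 and SHAM 2 stood above the other 8 libraries. Its means were both 16.0 FPKM, with SDs of 4.28 in SG and 4.34 in SHAM (n = 5 each).

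Soat1, the esterifying enzyme of macrophages and many other cells, was at 2.03, 3.92, 2.16, 2.15 and 1.999 FPKM in SG and at 2.25, 2.13, 2.43, 2.41 and 3.46 FPKM in SHAM. SG 2 and SHAM 5 stood above the rest. Mylip, a ubiquitin ligase that marks lipoprotein receptors for degradation, lay between 0.952 and 2.23 FPKM and was highest in the same 2 libraries. The sum of macrophage markers was highest there too: over 6 of 6 genes it was 227, 435, 200, 183 and 191 FPKM in SG and 255, 159, 216, 236 and 379 FPKM in SHAM. The Kupffer cell gene Clec4f was at 76.7 FPKM in SG 2 and 116 FPKM in SHAM 5 against 27.6 to 48.7 FPKM in the others. Not every marker was highest in both: Cd163 was at 146 FPKM in SHAM 1 against 135 FPKM in SHAM 5. Cd68 was at 19.1 FPKM in SHAM 4 against 18.0 FPKM in SG 2, and Lyz2 at 20.1 FPKM in SG 5 against 19.9 FPKM in SHAM 5. The part of these markers in the Soat1 and Mylip values was not tested, and in whole tissue fewer cells of a type and less RNA per cell cannot be told apart. Soat1's log2 fold change was -0.15 ± 0.24 (SE), with an unadjusted p of 0.543 and an adjusted p of 0.993 in edgeR.

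Set against SHAM, then, none of the 31 genes passed the test for SG: 0 of 31 had an adjusted p under 0.05 in edgeR's quasi-likelihood test with Benjamini-Hochberg adjustment, and 0 of 31 had an unadjusted p under 0.05. Over all 11139 genes 0 were called (0%) and 505 had an unadjusted p under 0.05 (4.53%), 299 higher in SG (2.68%) and 206 lower (1.85%). DESeq2 called 18 genes (0.162%) and limma on log2(FPKM + 0.5) called 0, and none of the 31 was called by either. The FPKM ranges of SG and SHAM did not overlap for 149 genes (1.34%), and for 0 of the 31. Counts were also simulated from these libraries over the 11139 genes, with the same number of libraries. In them edgeR found 60% of genes changed 2-fold and 92% of genes changed 4-fold, with 11 false calls. The changed genes were drawn from all tested genes, whose median within-group SD of log2 CPM was 0.26. That median was 1.4 for the 19 enzymes, so these percentages do not give the share that could be found among them.

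The direction of the estimates rested on single libraries. The log2 fold change was positive for 22 of the 31 genes and for 17 of the 19 enzymes, against 47.4% of all tested genes, of which 52.6% were negative, with a median of 0.08 over the 31 and -0.01 over all. By role the medians were -0.03 for the regulators, 0.35 for the mevalonate enzymes, 0.16 for the squalene and lanosterol enzymes, 0.22 for the later enzymes and -0.02 for uptake, transfer and esterification. Without SG 1 only 6 of the 31 were positive and the median was -0.10. Without SG 3, SHAM 4 or SHAM 5 the positive counts were 12, 15 and 14. The sign of 26 of the 31 genes turned when some 1 library was left out, and it held for Hmgcs1, Mvd, Sc5d, Mbtps1 and Mbtps2.

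**Figure D3:**
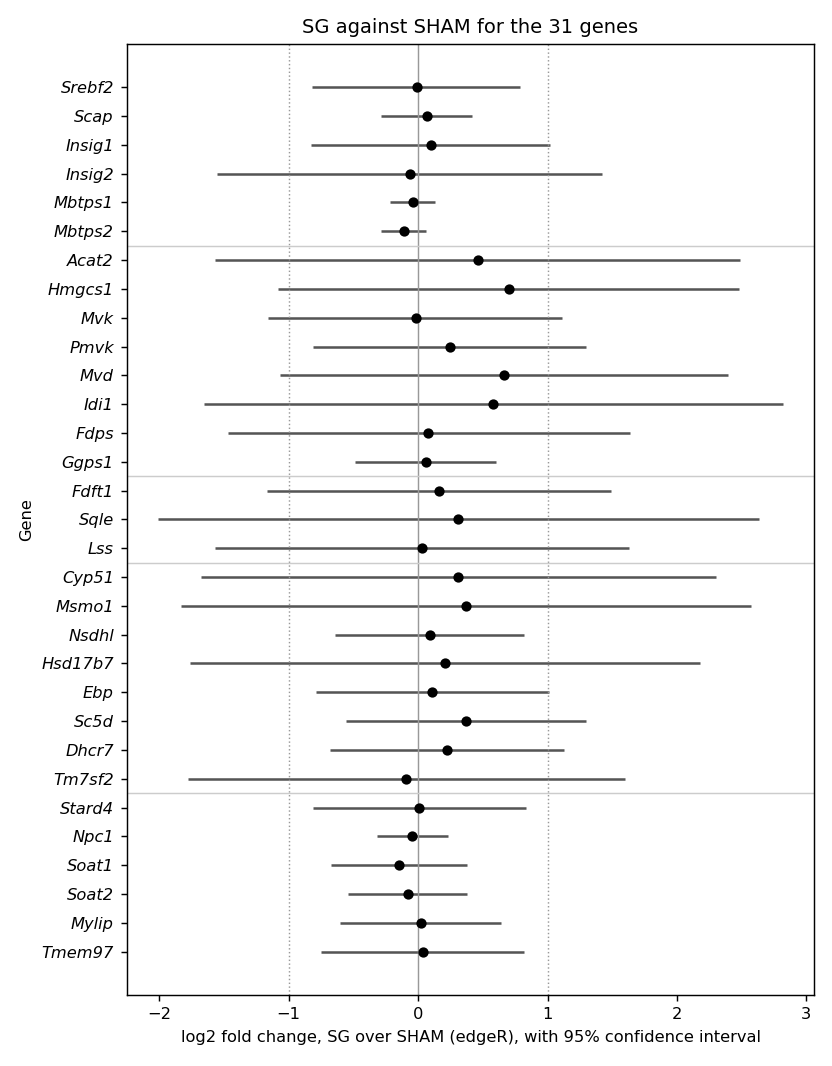
Log2 fold change of SG over SHAM for the 31 genes, ordered by role, with 95% confidence intervals derived from edgeR's test statistic. Dotted lines mark 2-fold changes. Every interval includes 0, and 12 of the 31 lie inside the 2-fold lines.

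How large a difference these data leave possible varied from gene to gene. The 95% interval stayed within 2-fold for 12 of the 31 genes, against 84.9% of all tested genes: Srebf2, Scap, Mbtps1, Mbtps2, Ggps1, Nsdhl, Stard4, Npc1, Soat1, Soat2, Mylip and Tmem97. It stayed within 1.5-fold for Scap, Mbtps1, Mbtps2, Npc1 and Soat2, 5 of the 31 against 60.6% of all genes. The median distance from an estimate to the end of its interval was 0.37 on the log2 scale over all genes and 1.6 over the 19 enzymes. For Sqle and Idi1, among others, a 2-fold difference between SG and SHAM in either direction lay inside the interval and was not detectable with these libraries.

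The enzymes were widely spread within each group. The median within-group SD on the log2 CPM scale was 1.4 for the 19 enzymes and 0.26 for all tested genes, whose 95th percentile was 0.979. It was 1.43 for the mevalonate enzymes, 1.4 for the squalene and lanosterol enzymes, 1.16 for the later enzymes, 0.47 for the regulators and 0.42 for uptake, transfer and esterification. Sqle had an SD of 2.16 and Idi1 of 2.01, while Mbtps1 had 0.09 and Npc1 0.19. From the lowest to the highest library 21 of the 31 genes ranged over more than 4-fold, against 12.5% of all genes, 13 over more than 10-fold, against 4.83%, and 10 over more than 20-fold, against 3.07%. Those 10 were Sqle, Idi1, Acat2, Msmo1, Cyp51, Hsd17b7, Mvd, Tm7sf2, Insig1 and Hmgcs1.

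**Figure D4:**
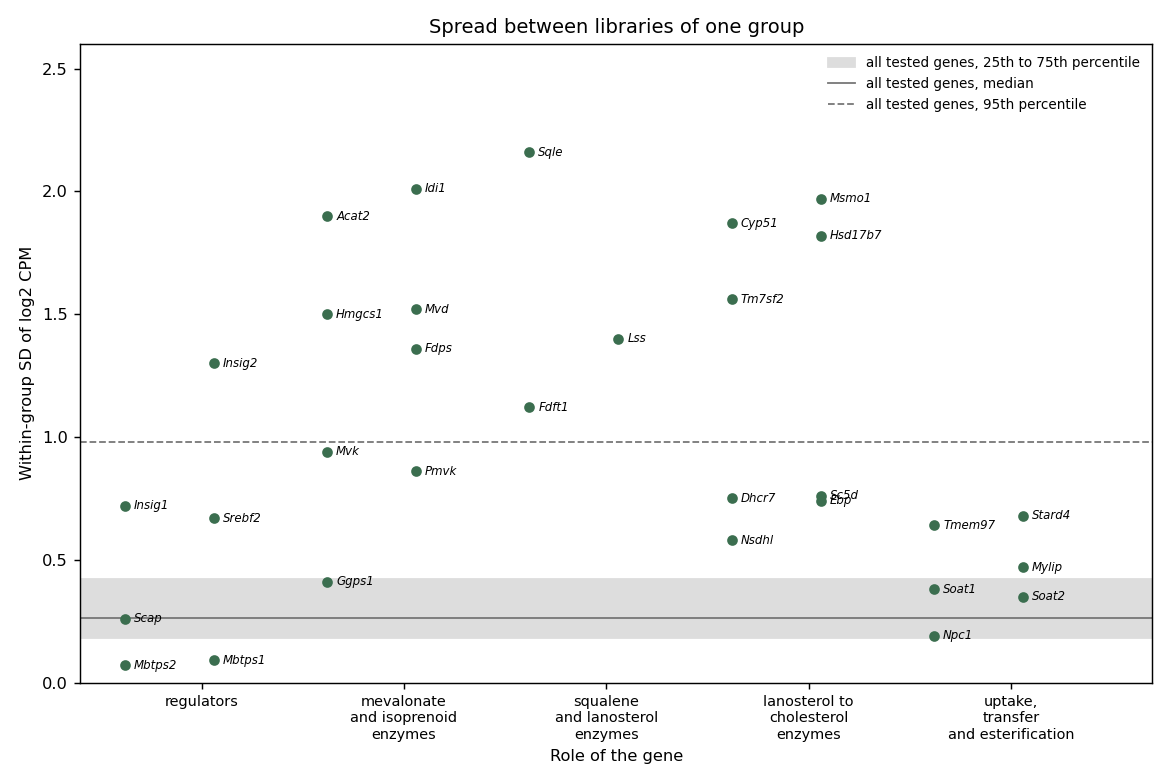
Within-group SD of log2 CPM for each of the 31 genes, placed by role, with the median (line), the 25th to 75th percentile (grey band) and the 95th percentile (dashed line) of all tested genes. Sqle, at 2.16, and Idi1, at 2.01, lie far above the 95th percentile of 0.979, and Mbtps2, at 0.07, lies below the band.

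Across the 10 libraries the genes were compared with Hmgcs1 in 10 pairs on the log2 CPM scale, with p from permutation tests (100000 resamples, two-sided) adjusted over the 10 pairs. Srebf2 followed Hmgcs1 with Pearson's r of 0.94 (permutation p = 5e-05, adjusted 0.000125) and Spearman's rho of 0.92 (adjusted permutation p = 0.00122). Without SG 1 and SG 3, the libraries farthest from the median of Hmgcs1, r was 0.97. It was 0.95 on values centred on their group means, and 0.99 in SG and 0.96 in SHAM over 5 libraries each. In SG, Hmgcs1 fell into separate sets, with SG 1 and SG 3 at 315 FPKM or more and the others at 58.6 FPKM or less. No relation within SG is therefore read from its coefficient. Srebf2 itself was at 42.1 FPKM or more in the 5 high libraries and at 28.5 FPKM or less in the others. Its coefficient over all 10 thus includes the step between these sets. Idi1 gave r of 0.99 and Sqle r of 0.97, both at the smallest p that the resamples can give (permutation p = 1e-05, adjusted 5e-05), with rho of 0.96 and 0.95. Cyp51 gave r of 0.94 (permutation p = 4e-05, adjusted 0.000125) with rho of 0.96, and Stard4 r of 0.94 (permutation p = 9e-05, adjusted 0.00018) with rho of 0.88. Without SG 1 and SG 3 these r were 0.99 for Idi1, 0.97 for Sqle, 0.94 for Cyp51 and 0.92 for Stard4. All of these genes were also split between the 5 high libraries and the others. The lowest high value and the highest other value were 9.23 and 4.34 FPKM for Idi1 and 18.85 and 7.37 FPKM for Sqle. They were 80.3 and 46.45 FPKM for Cyp51 and 20.4 and 12.4 FPKM for Stard4. Their coefficients and permutation p over all 10 libraries thus include this step as well. Over all 10 libraries together, neighbouring Hmgcs1 levels were at most 1.97-fold apart, between 91.6 and 180 FPKM, but Sqle had a step of 5.15-fold.

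The INSIG genes did not pass in the same way. Insig1 had r of 0.50 with Hmgcs1 (permutation p = 0.139, adjusted 0.154) and rho of 0.44, and r was 0.35 without SG 1 and SG 3. Insig2 ran opposite, with r of -0.69 (permutation p = 0.0308, adjusted 0.0385) and rho of -0.66 (adjusted permutation p = 0.0628), and r of -0.68 without SG 1 and SG 3. That call was lost when SG 3, SG 4, SG 5, SHAM 3, SHAM 4 or SHAM 5 was left out, with r between -0.79 and -0.60 over all libraries left out in turn, and r was -0.30 on reference isoforms, where Insig2 is nearly flat. Over all 11138 other genes, 40 (0.359%) had r of at least 0.9 with Hmgcs1, and 19 of these were among the 30 other genes described here. As a description over 10 shared libraries, 87 genes (0.781%) had r of -0.8 or lower and none of the 31 was among them.

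**Figure D5:**
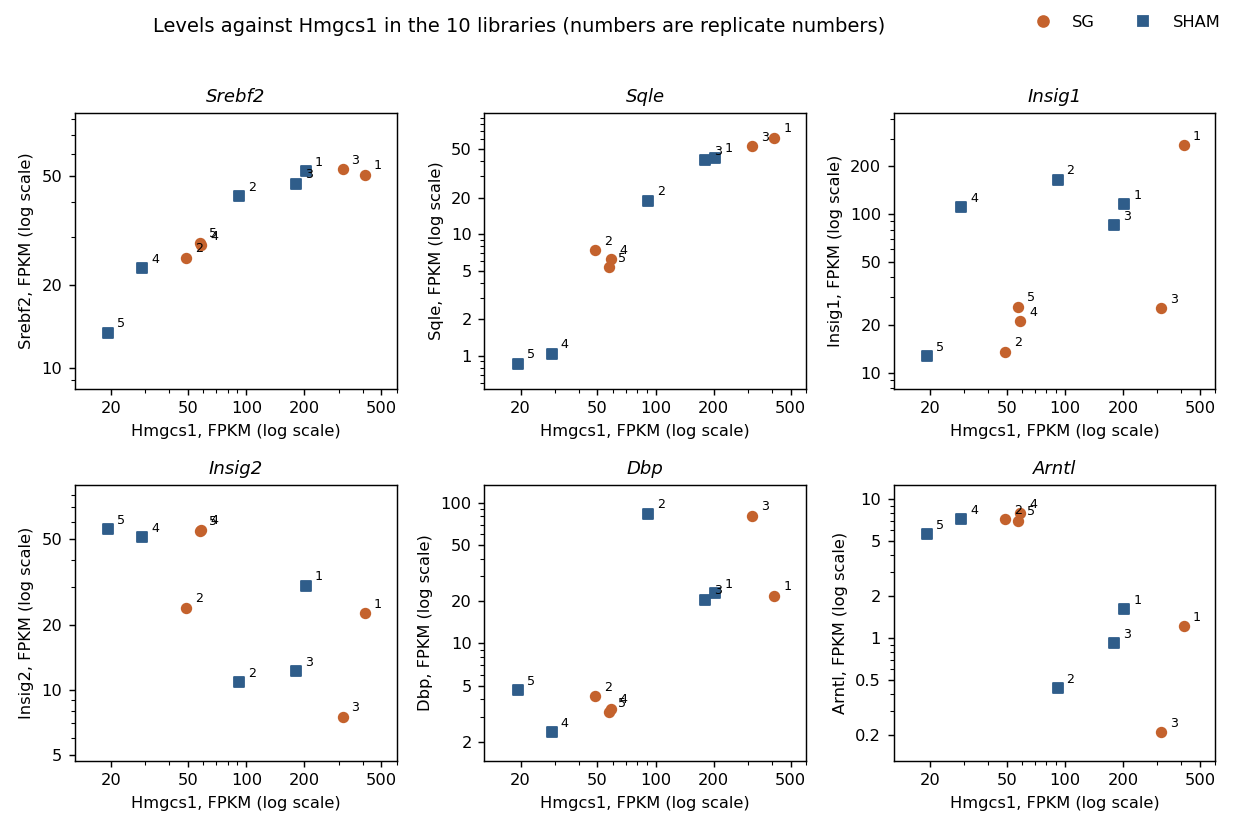
FPKM (log axes) of Srebf2, Sqle, Insig1, Insig2, Dbp and Arntl against that of Hmgcs1 in the 10 libraries, SG as orange circles and SHAM as blue squares, with replicate numbers. Srebf2 and Sqle rise with Hmgcs1, Insig1 is scattered, Insig2 is highest where Hmgcs1 is low, and Dbp and Arntl fall into separate high and low sets.

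Genes next to this pathway did not all share its pattern. Of 25 other genes of sterol handling in the table, such as the nuclear receptors Nr1h2 and Nr1h3 and the sterol exporters Abcg5 and Abcg8, 0 had the same 5 high libraries. None of the 24 tested passed in edgeR, 0 had an unadjusted p under 0.05, 5 log2 fold changes were positive and 19 negative, and their median was -0.08. The smallest unadjusted p was 0.0623 for Abcg8, with a log2 fold change of 1.99 ± 0.96 (SE) that followed SG 1 at 12.7 FPKM, where the other libraries were at 2.62 FPKM or less. Of 9 genes that use farnesyl or geranylgeranyl diphosphate for ubiquinone, dolichol or protein prenylation, 0 had the pattern and 0 passed in edgeR, with a median log2 fold change of -0.07. SREBP1 and fatty acid synthesis genes shared it in part: Acly, Fasn, Elovl6, Acss2 and Fads1, 5 of 12, had the same 5 high libraries, and 0 of the 10 tested passed in edgeR.

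Srebf1, which encodes SREBP1, was at 52.4, 19.8, 50.8, 34.4 and 27.8 FPKM in SG and at 44.7, 63.7, 27.8, 104.0 and 44.3 FPKM in SHAM. It was highest in SHAM 4, a low library for the sterol enzymes. Its r with Hmgcs1 was -0.02 (permutation p = 0.963, adjusted 0.963), with rho of 0.14. It was 0.91 within SG and -0.60 within SHAM, over 5 libraries each. Its log2 fold change was -0.71 ± 0.38 (SE), with an unadjusted p of 0.0877 and an adjusted p of 0.991 in edgeR.

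Genes of the circadian clock fell into the same 5 and 5 libraries as the sterol enzymes. Dbp, a clock output factor that peaks late in the day in rodent liver, was at 21.8, 4.20, 81.1, 3.42 and 3.23 FPKM in SG and at 22.7, 83.6, 20.5, 2.34 and 4.63 FPKM in SHAM. Arntl, the clock activator with the opposite phase, was at 1.23, 7.16, 0.211, 7.91 and 7.00 FPKM in SG and at 1.62, 0.438, 0.927, 7.22 and 5.62 FPKM in SHAM. SG 1, SG 3, SHAM 1, SHAM 2 and SHAM 3 were the high set for Dbp and the low set for Arntl, with no library in between. Because the libraries fall into separate sets of 5 for these genes, no relation with Hmgcs1 is read from a coefficient over all 10, and each set is too small for its own. Dbp, Tef, Nr1d2, Ciart and Per3, 5 of 6 genes of the evening side, had their 5 highest values in those libraries. Arntl, Npas2 and Clock, 3 of 4 of the morning side, had them in the others. With a score of these genes as a covariate, 0 genes were called in edgeR, 539 had an unadjusted p under 0.05 (4.84%), and 0 of the 31 were called. The log2 fold change was then positive for 24 of the 31, against 47.9% of all genes, with a median of 0.19 and a range of medians from 0.04 to 0.40 when each library was left out. The part of collection time in the sterol enzyme levels was not tested.

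At the level of isoforms, 81 of the 92 rows could be tested among 39559 in all, and edgeR called 0 of the 81 and 0 of all (0%), with an unadjusted p under 0.05 for 6 of the 81 and for 1629 of all (4.12%). On log2(FPKM + 0.1), limma called 3 isoforms, 0 of them among the 81. The 4 smallest p belonged to Insig1 and Scap. A pair of assembled Insig1 isoforms on chromosome 4, each reaching from 317718 to 350515, had log2 fold changes of 1.42 ± 0.44 (SE) for the one of 28738 nt and 1.54 ± 0.49 (SE) for the one of 31064 nt, with unadjusted p of 0.00924 and 0.0109 and adjusted p of 1 in edgeR. The isoform of 28738 nt was at 1.15, 3.54, 5.32, 4.135 and 4.14 FPKM in SG and at 1.05, 1.70, 0.535, 1.26 and 2.03 FPKM in SHAM, so 4 of 5 SG libraries were above every SHAM library and SG 1 was not.

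The other pair were assembled Scap isoforms of 24 exons on chromosome 8. The isoform of 4423 nt (118592359 to 118628638) was at 0, 0.0397, 20.7, 0.0750 and 5.05 FPKM in SG and at 0, 0.0627, 0.0222, 0 and 0.0372 FPKM in SHAM. It was above 1 FPKM in SG 3 and SG 5 only, and DESeq2 gave it an adjusted p of 0.0413, its only call among the 81, against 206 of all isoforms (0.521%). The isoform of 4438 nt (118587085 to 118628639) was at 14.9 FPKM in SHAM 4 and 4.66 FPKM in SHAM 1 and at 0.110 FPKM or less elsewhere. The Scap total stayed between 13.8 and 21.3 FPKM in the same libraries. In other libraries other isoforms held most of it. The assembled isoform of 5242 nt was at 21.2 FPKM in SG 1 and 13.8 FPKM in SG 2. An annotated isoform of 4265 nt was at 14.8 FPKM in SG 4, 17.7 FPKM in SHAM 2 and 13.7 FPKM in SHAM 5. Since the 7 summed Scap isoforms overlap and reads could be split among them, the values of single isoforms are uncertain.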

How the data were processed

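Rat liver RNA was sequenced as 10 paired-end libraries, 5 SG and 5 SHAM, after ribosomal RNA removal, per the labels' protocols. The build was Rnor_6.0 and the tools named were HISAT2 2.0.4, StringTie 1.3.4, FastQC 0.10.1 and cutadapt 1.9, per the submitters' processing notes. The table they deposited holds, for 28040 reference and 23390 assembled isoforms, an FPKM and an estimated count per library. The deposited estimated counts are whole numbers proportional to FPKM and length, so they carry the assembler's split of reads between isoforms. They were summed per gene name over isoforms that match or share splice sites with the reference, and antisense and intronic rows were left out.

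Genes with a mean of at least 1 FPKM were tested with edgeR 4.0.16 in R 4.3.3 (quasi-likelihood test, TMM scaling, two-sided, Benjamini-Hochberg over all tested genes, threshold 0.05). Isoforms were tested where they averaged at least 0.1 FPKM and exceeded 0 in 5 or more libraries. DESeq2 1.42.0, limma 3.58.1, other pseudocounts (0.1 and 1), TPM, no filter, reference isoforms only, the replicate number as a block, a clock score as covariate and each library left out were alternatives. The test was tried on simulated data. The 31 genes, the other gene lists and the tests were chosen with earlier results of these data known. Per-library values are given for genes named in advance by role, the 6 smallest p and the 3 widest ranges. Promoter sequences came from RefSeq (GRCr8), whose coordinates are not those of the deposited files (Rnor_6.0). The labels give no batch or date.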

Additional observations from a re-analysis of the deposited data

Results flagged for a closer look

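Insig1 in SG 1 was at 272 FPKM, where the next SG library was at 26.1 FPKM and the lowest at 13.5 FPKM, so a gap of 0.951 of the group's range set it apart. The sterol enzymes were also highest in SG 1 for 14 of 19 genes, but SG 3, with enzyme levels close to those of SG 1, had Insig1 at 25.6 FPKM. Soat1 was flagged in both groups: SG 2 stood at 3.92 FPKM with the next SG library at 2.16 FPKM (gap 0.917 of the range), and SHAM 5 at 3.46 FPKM with the next SHAM library at 2.43 FPKM (gap 0.776). The macrophage marker sum was highest in its group in those same libraries, at 435 FPKM in SG 2 and 379 FPKM in SHAM 5, and its part in the Soat1 values was not tested. A gap above 0.71 of the range sets a library of 5 apart. The rule was applied to 62 groups, 31 genes in SG and in SHAM, and chance alone sets a library apart in about 1 group in 20.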

How the results depend on the processing

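In edgeR 0 genes were called, with 505 at an unadjusted p under 0.05. DESeq2 called 18, and limma on log2(FPKM + 0.5), the other pseudocounts, TPM, no filter, reference isoforms, the replicate block and the clock covariate each called 0. Leaving out a library called 0 to 1. None of the 31 genes was called under any of these, with or without any library. Among isoforms limma called 3, DESeq2 206 and leaving out a library 0 to 6, with 1 isoform of the 31 genes called, by DESeq2. Genes at an unadjusted p under 0.05 split into 299 higher and 206 lower in edgeR, 646 and 54 on log2(FPKM + 0.5), where the median of all genes was 0.08, and 201 and 123 on TPM.

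No log2 fold change of the 31 genes was called, and many changed sign between settings. The cause was not tested. With limma at pseudocounts 0.5, 0.1 and 1 the values were 0.14, 0.15 and 0.14 for Srebf2, -1.08, -1.09 and -1.07 for Insig1, 0.03, 0.02 and 0.03 for Insig2, 0.08 at each for Mbtps1, 0.02, 0.02 and 0.01 for Mbtps2, 0.04, 0.05 and 0.04 for Mvk, -0.33, -0.33 and -0.32 for Nsdhl, 0.47, 0.50 and 0.44 for Tm7sf2, 0.03 at each for Npc1 and 0.00 at each for Soat2. On TPM they were 0.04 for Srebf2, -0.05 for Scap, -1.19 for Insig1, -0.09 for Ggps1, -0.00 for Lss, -0.44 for Nsdhl and 0.39 for Tm7sf2. On reference isoforms only, Scap was -1.11, Insig1 -0.72, Mbtps1 0.31, Mvk 0.13, Nsdhl -1.89, Dhcr7 -0.10, Stard4 -0.01 and Npc1 0.03. With the clock covariate Srebf2 was 0.13, Mvk 0.19, Tm7sf2 0.55 and Mylip -0.07.

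Replicate numbers did not pair the libraries: deviations of same-numbered libraries correlated at 0.05, -0.22, -0.01, 0.01 and 0.14, and only SG 5 was most alike its own number. With the replicate number as a block, 456 genes had an unadjusted p under 0.05 and 0 were called, and the values that changed sign were Srebf2 at 0.06, Ggps1 -0.02, Lss -0.08, Nsdhl -0.02 and Tm7sf2 0.43.

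Leaving out each library gave log2 fold changes of -0.02 to 0.74 for Acat2, -0.10 to 0.72 for Cyp51, -0.04 to 0.42 for Dhcr7, -0.14 to 0.32 for Ebp, -0.20 to 0.42 for Fdft1, -0.31 to 0.33 for Fdps, -0.24 to 0.17 for Ggps1, 0.14 to 1.04 for Hmgcs1, -0.31 to 0.60 for Hsd17b7, -0.00 to 1.16 for Idi1, -0.38 to 0.32 for Insig1, -0.35 to 0.30 for Insig2, -0.40 to 0.34 for Lss, -0.08 to -0.01 for Mbtps1, -0.14 to -0.09 for Mbtps2, -0.39 to 0.77 for Msmo1, 0.19 to 0.99 for Mvd, -0.35 to 0.21 for Mvk, -0.16 to 0.28 for Mylip, -0.11 to 0.03 for Npc1, -0.21 to 0.24 for Nsdhl, -0.04 to 0.46 for Pmvk, 0.07 to 0.65 for Sc5d, -0.05 to 0.14 for Scap, -0.39 to 0.00 for Soat1, -0.27 to 0.06 for Soat2, -0.23 to 0.75 for Sqle, -0.22 to 0.14 for Srebf2, -0.22 to 0.16 for Stard4, -0.49 to 0.28 for Tm7sf2 and -0.23 to 0.22 for Tmem97. The median over the 31 ran from -0.10 to 0.28. With the clock covariate and each library left out that median ran from 0.04 to 0.40. With the covariate and 1 library left out, these values were opposite in sign to the estimate with all libraries and no covariate. Srebf2 gave 0.08, 0.16, 0.16, 0.09, 0.17, 0.26, 0.05, 0.21 and 0.24 without SG 1, SG 2, SG 3, SG 4, SG 5, SHAM 1, SHAM 2, SHAM 3 and SHAM 4. Mvk gave 0.09, 0.21, 0.24, 0.15, 0.27, 0.29, 0.14, 0.23, 0.31 and 0.05 without SG 1, SG 2, SG 3, SG 4, SG 5, SHAM 1, SHAM 2, SHAM 3, SHAM 4 and SHAM 5. Tm7sf2 gave 0.40, 0.54, 0.95, 0.38, 0.65, 1.02, 0.50, 0.65, 0.28 and 0.18 without SG 1, SG 2, SG 3, SG 4, SG 5, SHAM 1, SHAM 2, SHAM 3, SHAM 4 and SHAM 5. Mylip gave -0.12, -0.16, -0.04, -0.00, -0.01, -0.14, -0.10, -0.02 and -0.20 without SG 1, SG 2, SG 3, SG 4, SG 5, SHAM 1, SHAM 2, SHAM 3 and SHAM 4. In the same way Insig1 was -0.30 without SG 1 and -0.03 without SHAM 5, Fdps was -0.06 without SG 1 and -0.05 without SHAM 5, Lss was -0.07 without SG 1 and -0.09 without SHAM 5, Nsdhl was -0.16 without SG 1, -0.05 without SHAM 2 and -0.02 without SHAM 5, Stard4 was -0.01 without SG 1 and -0.02 without SHAM 5, Tmem97 was -0.04 without SG 1 and -0.00 without SHAM 5, Mbtps1 was 0.01 without SG 3, Npc1 was 0.01 without SG 4 and 0.03 without SHAM 3, Ggps1 was -0.22 without SG 5 and -0.09 without SHAM 4 and Soat2 was 0.02 without SG 5, 0.02 without SHAM 2 and 0.13 without SHAM 4.

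The correlations with Hmgcs1 ran, over the libraries left out in turn, from -0.87 to -0.68 for Arntl, 0.93 to 0.96 for Cyp51, 0.66 to 0.86 for Dbp, 0.98 to 0.99 for Idi1, 0.26 to 0.65 for Insig1, -0.79 to -0.60 for Insig2, 0.96 to 0.98 for Sqle, -0.18 to 0.36 for Srebf1, 0.93 to 0.96 for Srebf2 and 0.92 to 0.96 for Stard4. On reference isoforms Insig2 was -0.30, past no threshold, Dbp 0.68 and Arntl -0.35, and Srebf1 was 0.11 there and 0.11 on centred values. The coefficients of Dbp and Arntl are listed as values only: the libraries fall into separate sets for these genes, so no relation is read from them and none counts as called. The spread between 5 libraries a group limits what could be detected for the enzymes.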

Other observations

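Markers of other cell types gave further values for these libraries. The stellate and fibroblast sum, over 6 of 6 genes, ran from 39.5 to 98.2 FPKM in SG, highest in SG 2, and from 29.9 to 60.4 FPKM in SHAM. Endothelial markers, 4 of 5 listed genes, summed to 54.9 to 81.2 FPKM in SG and 44.2 to 72.1 FPKM in SHAM. Over both groups, the bile duct sum over 4 of 4 genes lay between 1.95 and 7.57 FPKM. That of T, NK and B cell markers over 5 of 6 genes lay between 2.16 and 8.68 FPKM, of which Ptprc alone held 1.78 to 5.68 FPKM. That of adipocyte markers over 3 of 4 genes lay between 14.7 and 26.3 FPKM. Nearly all of the adipocyte sum was Cidec, at 14.7 to 26.1 FPKM. Adipoq was at 0.314 FPKM or less and Plin1 at 0.182 FPKM or less. No gene of these lists or of the hepatocyte and macrophage lists had its 5 highest values in the libraries where the sterol enzymes were highest. The endothelial gene Kdr and the T cell gene Cd3e, the latter at 0.671 FPKM or less, had theirs in SG 2, SG 4, SG 5, SHAM 4 and SHAM 5. So did 246 of the 11139 tested genes. Among fatty acid genes, Scd, the stearoyl-CoA desaturase, went a way of its own: it was at 155 FPKM in SG 2, 27.3 FPKM in SHAM 5 and 11.6 FPKM in SHAM 4, all low libraries for the sterol enzymes, and at 3.73 FPKM or less in the others.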
